A study of Mus musculus with 4 samples.

Results

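The genes that carry glucose into a cell, break it down to pyruvate and divert it into the pentose phosphate pathway were evaluated in basal and luminal epithelial cells of the developing mouse prostate. The list held 46 genes of the 49671 in the deposited table. It was a fixed list of names: 8 glucose transporters, 3 monocarboxylate transporters, 5 enzymes of glucose phosphorylation, 7 of upper glycolysis, 7 that set the level of fructose bisphosphates, 9 of lower glycolysis and 7 of the pentose phosphate pathway. Each gene was matched by its identifier to the GENCODE annotation of GRCm38, and the rule itself used no measured value, although earlier results of these data were known when the list was drawn up.

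Untreated CD-1 mice of postnatal day 10 to 13 were used according to the labels (the study's methods end the range a day earlier and describe males of mixed background), and the tips of the ventral prostate were cut from the main ducts before sorting. Basal cells (EpCAM high, CD49f high) and luminal cells (EpCAM high, CD49f low) were isolated by FACS after cells positive for CD45, CD31 or CD140a had been removed. Each cell type gave 2 RNA-seq libraries, basal 1 and 3 and luminal 2 and 3 in the labels. All 4 libraries share the strain, the age range, the tissue and the absence of treatment, and they differ by the CD49f gate. The series title describes the luminal cells as derived from basal cells, but these cells were sorted by surface markers and not by a lineage label. The sources used here do not say which mice went into which library, so p-values measure the spread between these libraries, which may be partly technical.

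Glucose enters epithelial cells through GLUT carriers of the Slc2a family and is trapped by hexokinases. Phosphofructokinase commits it to glycolysis, under the control of the bifunctional PFKFB enzymes, and lower glycolysis yields ATP, NADH and pyruvate. Glucose 6-phosphate can leave for the pentose phosphate pathway, whose oxidative arm makes NADPH and whose non-oxidative arm makes ribose. The prostate epithelium is known for its unusual use of glucose carbon, since mature luminal cells secrete citrate instead of oxidizing it fully.

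Values are read counts per gene that the authors scaled to a common total of aligned reads per library and rounded, here called normalized counts. The spacing of low values placed 1 read at 6.26 and 6.5 normalized counts in basal 1 and 3, and at 31.2 and 19.4 in luminal 2 and 3. This amounts to about 3194397 and 3076760 reads on genes in the basal libraries and 643189 and 1036601 in the luminal libraries. Depth and cell type therefore cannot be told apart, and a luminal value under 100 rests on a handful of reads. Nuclear protein-coding genes held 74.7% to 76.0% of the basal total and 57.3% to 64.2% of the luminal total. All 8 basal marker genes had basal averages at least 2 times the luminal ones, and 7 of 12 luminal marker genes the reverse, in the direction of the labels. Krt5, a basal keratin, was at 18481 and 15824 in basal cells against 93 and 77 in luminal 2 and 3. Stromal genes were present in all libraries and varied within each cell type: the 8 smooth muscle markers summed to 31870 and 54987 in basal 1 and 3, and to 63041 and 10216 in luminal 2 and 3. The 8 fibroblast markers summed to 100717 and 207525 in the basal libraries and to 198164 and 71369 in luminal 2 and 3. Individual genes of these lists did separate the cell types, in opposite directions. The fibroblast gene Dcn was at 45830 and 47724 in basal and 20256 and 5770 in luminal 2 and 3. The muscle gene Des was at 820 and 1715 against 2834 and 3207. The 8 endothelial markers summed to between 639 and 1870 and the 8 leukocyte markers to between 852 and 3369 per library. In such bulk samples, fewer cells of a type and less RNA per cell cannot be told apart.

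A gene was kept when every library of at least 1 cell type reached 10 and that cell type averaged 20, which left 18737 genes and 42 of the 46 members. The 4 members not kept were Slc2a6, Hkdc1, Pgam2 and Fbp1. Of the 42 kept, 5 (11.9%) had a luminal average at least 2 times the basal average, against 18.3% of all genes kept. Hk3 and Fbp2, among these 5, were at 0 in basal cells and were kept through luminal cells alone. The luminal average was at most 0.5 of the basal average in 6 (14.3%), against 16.3% of all genes kept. Both shares were within a few genes of the background. The remaining 31 were past neither threshold. Both luminal libraries lay above both basal libraries in 10 members (23.8%), against a background of 23.6%, and below them in 11 (26.2%), against 27.3%. The other 21 overlapped. The median log2 fold change, luminal minus basal, was -0.14 over the members kept and -0.10 over all genes kept.

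With limma on log2 of the normalized count plus 1 and Benjamini-Hochberg adjustment over all genes kept, 0 members had an adjusted p under 0.05, against 0.694% of all genes. An unadjusted p under 0.05 was reached by 9 members (21.4%), against 18.5% of all genes: Slc2a1, Slc2a4, Hk2, Hk3, Pfkfb4, Fbp2, Gapdh, Eno1 and Pgd. Of these, Hk3 and Fbp2 were at 0 in basal cells and rest on about 1 to 3 luminal reads. There 1 read is worth 31.2 and 19.4 in luminal 2 and 3, above the filter minimum of 10, so their p-values say little. With all libraries included, other limma settings called between 0 and 3 members. Slc2a4 was called when both cell types had to pass the filter, with a pseudocount of 10 and with quantile normalization. Fbp2 and Hk3 were called with quantile normalization and without the trended prior, on the few luminal reads given above. Log2 fold changes are on the log2 scale of normalized count plus 1, which understates the change of low genes detected in every library. Where a library is at 0, the added 1 is below the worth of 1 read and the log2 value can exceed the change of the averages, as for Pfkfb1, at -2.72 for a luminal average 0.675 of the basal one. No member passed the main test, and the folds that follow are given with that limit. Among 34 members kept that averaged at least 100, 9 were past the fold threshold with no overlap, some of them on few luminal reads. Of these 9, 3 (8.82% of the 34) were higher in luminal cells (Pfkfb4, Pfkfb3 and Pgd) and 6 (17.6%) in basal cells (Slc2a4, Slc2a1, Slc16a1, Gapdh, Eno1 and Bpgm). Among the 12544 genes kept with that average, 10.1% met this in the luminal and 12.1% in the basal direction.

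**Figure D1:**
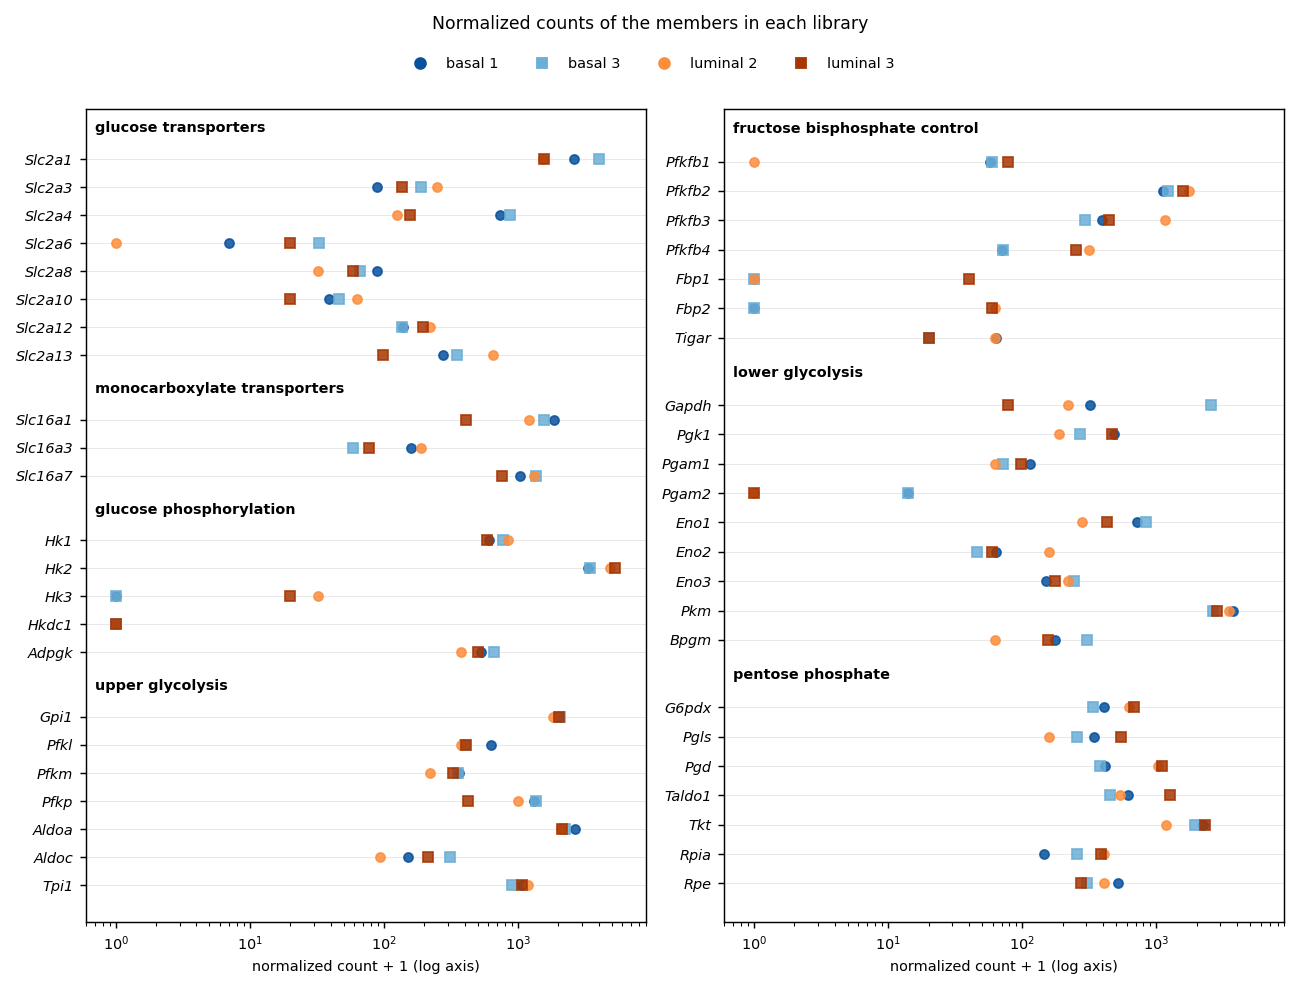
Normalized counts plus 1, on a log axis, of all 46 members in the 4 libraries, grouped by role; each point is 1 library (blue, basal; orange and brown, luminal). The cell types overlap in 21 of the 42 members kept, while Slc2a4 and Slc2a1 are to the right in basal cells and Pfkfb4 and Pgd in luminal cells.

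Of the 8 glucose transporters in the list, 7 were kept and 2 were past the fold threshold. Both were higher in basal cells, as were 16.3% of all genes kept. Slc2a4 (ENSMUSG00000018566, chromosome 11, 69942539 to 69948188, minus strand) encodes GLUT4, the insulin-responsive carrier best known from muscle and fat. It was at 739 and 864 in basal 1 and 3 and at 125 and 155 in luminal 2 and 3. The groups were far apart, and the luminal values rest on about 4 and 8 reads against about 118 and 133 in basal cells. The 95% Poisson interval of the larger luminal value, 66.9 to 305, stayed below that of the smaller basal value, 612 to 885; it covers counting error only. The averages were 802 ± 88.4 and 140 ± 21.2 (SD over 2 libraries each), a 5.73-fold difference; on the log2 scale this was -2.51 ± 0.40 (SE; limma adjusted p = 0.0659). The adjusted p was 0.0359 with a pseudocount of 10 and 0.0493 with quantile normalization, and it ranged from 0.0359 to 0.347 over 8 alternatives of scaling, pseudocount and libraries.

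GLUT4 is not typical of glandular epithelium, so markers of other tissues that use it were read beside it. The adipocyte genes Adipoq, Plin1 and Lep were at 0 in every library. Of the other 5 adipocyte markers, Plin4 overlapped, at 150 and 91 in basal and 218 and 58 in luminal 2 and 3. The remaining 4 were at 0 in both luminal libraries and had reads in basal cells, as Slc2a4 was higher there: Fabp4, a fatty acid binding protein, was at 38 and 39 in basal 1 and 3 (limma adjusted p = 0.0688), Cidec at 13 and 26, Cfd at 13 and 6 and Retn at 13 and 0. Without Plin4 the list summed to 77 and 71 in basal and 0 and 0 in luminal 2 and 3, where 3 reads would be worth 93.5 and 58.1. These 4 were thus detected in basal cells alone, the direction of Slc2a4, at low levels. Of the skeletal muscle genes, Myh4 and Myod1 were at 0 in every library and Ckm was at 31 in luminal 2 and at 0 elsewhere. The sum of the skeletal muscle list was 620 and 1090 in basal 1 and 3 and 1215 and 135 in luminal 2 and 3, most of it Acta1. Luminal 2 held the highest skeletal muscle sum and the lowest Slc2a4 value. Without Acta1 the list summed to 19 and 142 in basal 1 and 3 and 31 and 58 in luminal 2 and 3, too low to order the libraries. The smooth muscle sum was also highest in luminal 2. The part of other cell types in the Slc2a4 difference was not tested.

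Slc2a1 (ENSMUSG00000028645, chromosome 4, 119108711 to 119137983, plus strand) encodes GLUT1, the constitutive carrier of most dividing cells. Its normalized count was 2599 and 4021 in basal 1 and 3 and 1527 and 1549 in luminal 2 and 3. Both luminal libraries lay below both basal libraries and close to each other. The averages were 3310 ± 1006 and 1538 ± 15.6 (SD over 2 libraries each), a 2.15-fold difference, or -1.07 ± 0.29 (SE) on the log2 scale, and limma gave an adjusted p of 0.125. The difference was 1.69-fold without basal 3 and 1.74-fold after quantile normalization or rescaling to nuclear protein-coding genes, which puts it under the threshold.

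The other carriers were low. Slc2a12 was at 138 and 136 in basal and 218 and 194 in luminal 2 and 3. Slc2a3, the high-affinity GLUT3, ranged from 88 to 249 and overlapped, as did Slc2a10 (19 to 62) and the myo-inositol carrier Slc2a13 (97 to 654). Slc2a8 was at 88 and 65 against 31 and 58, and Slc2a6 was at 32 or less.

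Per kilobase of merged exon, Slc2a1 was the main GLUT transcript in both cell types, at 71.9% ± 3.80 of the family in basal and 70.2% ± 6.30 in luminal cells (SD, n = 2 each). The share of Slc2a4 was 19.8% and 16.2% in basal 1 and 3 and 5.43% and 7.53% in luminal 2 and 3, an 11.5-point lower luminal mean. Slc2a12 went the other way, from 3.04% and 2.09% to 7.77% and 7.74%. These shares are taken within a library, so a scaling between libraries does not touch them. With 2 libraries per group, an exact two-sided permutation test cannot go below p = 0.333, and neither share can pass 0.05.

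Lactate and pyruvate cross the membrane through monocarboxylate transporters. Slc16a1 (ENSMUSG00000032902, chromosome 3, 104638668 to 104658462, plus strand), which encodes MCT1, was at 1854 and 1559 in basal 1 and 3 and at 1215 and 407 in luminal 2 and 3. Luminal 3 was far below the rest, and luminal 2 was nearer to the basal libraries. The averages were 1707 ± 209 and 811 ± 571 (SD over 2 libraries each), for a log2 fold change of -1.27 ± 0.54 (SE; limma adjusted p = 0.295). The 2.10-fold difference was 1.40-fold without luminal 3, 4.19-fold without luminal 2, 1.92-fold without basal 1 and 1.74-fold after rescaling to nuclear protein-coding genes. Slc16a3, the lactate exporter MCT4, ranged from 58 to 187 and Slc16a7, the high-affinity MCT2, from 755 to 1358, and both overlapped. Slc16a1 took 78.1% and 73.7% of the family per kilobase in basal cells and 65.3% and 54.0% in luminal 2 and 3. With no division by length its luminal share was 44.8% and 32.8%, and Slc16a7, at 48.3% and 60.9%, led in both luminal libraries.

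Because Slc2a1 and Slc16a1 were both lower in luminal cells while Pfkfb4 and Pgd, described next, were both higher, their proximal promoters are shown. Each runs from 250 bases before to 50 after a RefSeq transcription start (GRCm38.p6), is written 5′ to 3′ on the gene's strand, and has in capitals every match, on either strand, to 4 motifs. These were the hypoxia response cores ACGTG and GCGTG, the E-box CACGTG, which contains ACGTG on both strands, and the antioxidant response core TGACNNNGC.
Slc2a1, chr4:119108495-119108794, plus strand: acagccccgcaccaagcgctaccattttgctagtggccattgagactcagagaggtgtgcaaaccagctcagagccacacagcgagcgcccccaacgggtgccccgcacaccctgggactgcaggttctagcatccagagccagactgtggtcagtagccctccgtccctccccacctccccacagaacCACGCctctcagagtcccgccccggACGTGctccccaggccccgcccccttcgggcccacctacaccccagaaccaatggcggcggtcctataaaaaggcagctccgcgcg
Slc16a1, chr3:104638414-104638713, plus strand: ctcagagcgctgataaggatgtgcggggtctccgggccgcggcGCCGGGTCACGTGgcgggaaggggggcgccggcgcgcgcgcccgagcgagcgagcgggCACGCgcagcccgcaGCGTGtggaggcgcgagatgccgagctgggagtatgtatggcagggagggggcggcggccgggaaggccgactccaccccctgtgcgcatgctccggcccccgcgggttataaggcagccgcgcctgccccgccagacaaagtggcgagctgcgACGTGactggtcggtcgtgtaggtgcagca
Pfkfb4, chr9:108991652-108991951, plus strand: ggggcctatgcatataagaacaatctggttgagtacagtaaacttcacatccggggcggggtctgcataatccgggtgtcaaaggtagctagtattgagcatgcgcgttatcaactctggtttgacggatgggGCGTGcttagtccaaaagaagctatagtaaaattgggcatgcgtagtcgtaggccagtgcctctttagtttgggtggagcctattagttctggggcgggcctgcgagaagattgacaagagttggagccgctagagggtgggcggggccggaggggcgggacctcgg
Pgd, chr4:149166656-149166955, minus strand: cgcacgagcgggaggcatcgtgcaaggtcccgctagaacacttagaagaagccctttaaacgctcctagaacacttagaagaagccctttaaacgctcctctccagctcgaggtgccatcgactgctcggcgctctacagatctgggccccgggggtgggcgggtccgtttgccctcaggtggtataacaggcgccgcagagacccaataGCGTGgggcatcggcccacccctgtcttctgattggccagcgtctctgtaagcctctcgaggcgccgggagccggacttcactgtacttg
The Slc2a1 window held ACGTG and GCGTG, Slc16a1 held all 4 motifs, and Pfkfb4 and this Pgd window held GCGTG. A further Pgd window, with a downstream start, held TGACNNNGC. Of 32851 RefSeq promoters of this length, 19.6% held ACGTG, 32.4% GCGTG, 7.15% CACGTG and 12.4% TGACNNNGC. Of the 43 members with an entry, 19 had ACGTG in at least 1 of their promoters, 25 GCGTG, 5 CACGTG and 7 TGACNNNGC. Members can have several promoters, 60 in all, and of these 23 held ACGTG, 30 GCGTG, 5 CACGTG and 7 TGACNNNGC. A match is a string of letters and no evidence of binding, and GCGTG was present in the windows of all 4 genes, whichever their direction.

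Among the enzymes that phosphorylate glucose, Hk2 (ENSMUSG00000000628, chromosome 6, 82725025 to 82774454), the mitochondria-associated hexokinase of proliferating cells, dominated in both cell types. It was at 3307 and 3430 in basal 1 and 3 and at 4830 and 5247 in luminal 2 and 3. The luminal libraries lay above the basal ones, with a small distance within each cell type. The averages were 3369 ± 87.0 and 5039 ± 295 (SD over 2 libraries each), or 0.58 ± 0.21 (SE) on the log2 scale, and limma gave an unadjusted p of 0.0343 and an adjusted p of 0.228. By average, Hk2 was higher in luminal cells and the main carrier Slc2a1 in basal cells. Hk1, the housekeeping hexokinase, was at 604 and 768 against 841 and 581 and overlapped. Per kilobase Hk2 made up 87.6% ± 1.56 of hexokinase in basal and 90.3% ± 2.82 in luminal cells (SD, n = 2 each). Hk3 was at 0 in both basal libraries and rested on about 1 read in each luminal library, Hkdc1 was at 0 in all 4, and no fold is given for either. Adpgk, an ADP-dependent glucokinase, was at 532 and 656 in basal and 374 and 503 in luminal 2 and 3.

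**Figure D2:**
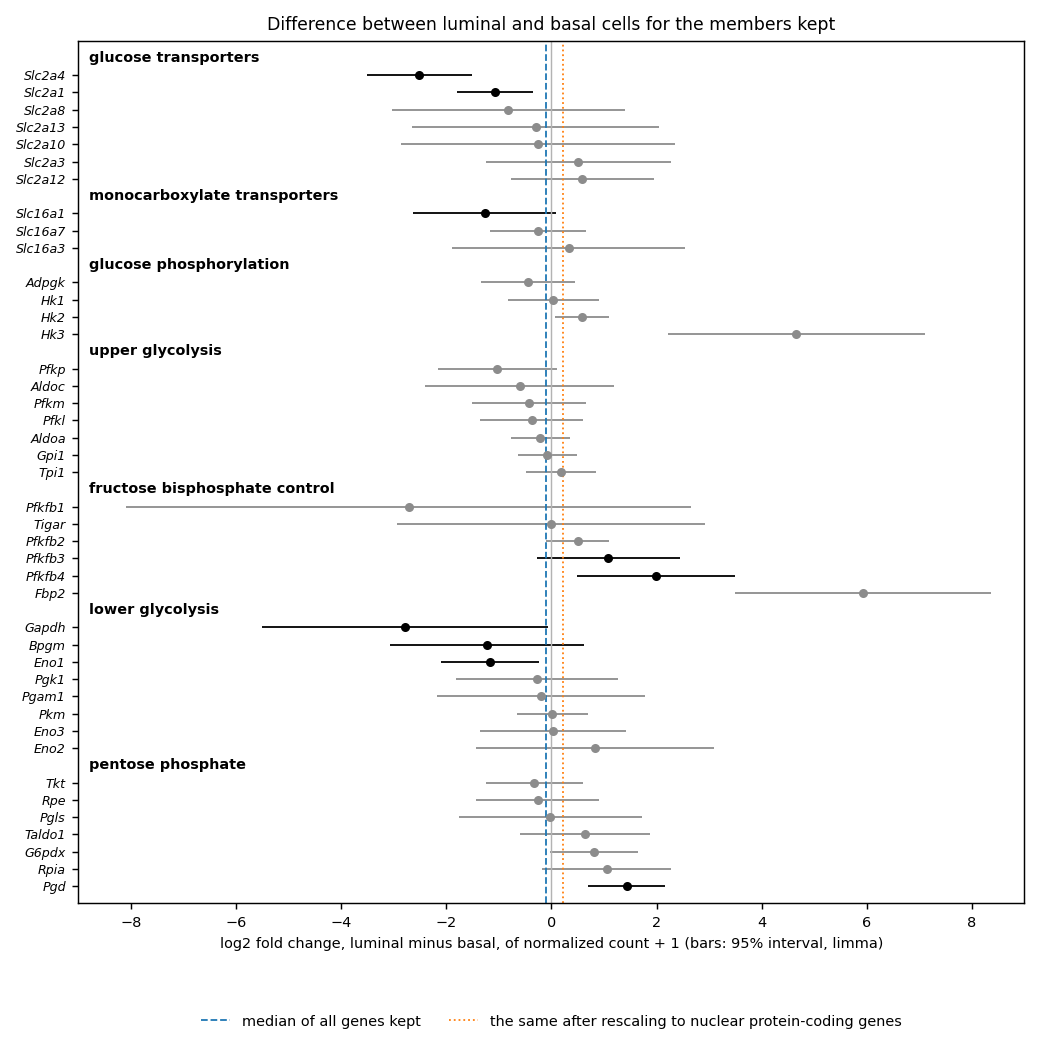
Log2 fold change, luminal minus basal, of normalized count plus 1 for the 42 members kept, with 95% limma intervals; black marks the 9 members past the fold threshold with no overlap and an average of 100 or more. The dashed line is the median of all genes kept (-0.10) and the dotted line the same median after rescaling to nuclear protein-coding genes (0.21); the intervals of Hk3 and Fbp2 rest on 0 reads in basal cells.

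Upper glycolysis, from glucose 6-phosphate to triose phosphate, had 0 of 7 members past the fold threshold. Of all genes kept, 18.3% were past it toward luminal and 16.3% toward basal cells. Gpi1, the isomerase, was at 1979 and 2059 in basal and 1807 and 2033 in luminal 2 and 3. Aldoa, the main aldolase, was at 2643 and 2248 against 2088 and 2130, and Tpi1, triose phosphate isomerase, at 1077 and 903 against 1184 and 1065. The 95% limma intervals of their log2 fold changes included 0 and were -0.64 to 0.49 for Gpi1, -0.77 to 0.36 for Aldoa and -0.48 to 0.85 for Tpi1. The phosphofructokinase isoforms Pfkl and Pfkm ranged from 374 to 633 and from 218 to 363. Pfkp, the platelet-type isoform, was at 1309 and 1351 in basal 1 and 3 and at 997 and 426 in luminal 2 and 3, with a log2 fold change of -1.03 ± 0.45 (SE) and an adjusted p of 0.307 from limma. The luminal libraries differed from each other by more than luminal 2 differed from the basal libraries. Pfkp took 32.4% and 37.6% of the family per kilobase in basal and 38.0% and 16.6% in luminal 2 and 3, so its mean share differed by -7.70 points, luminal minus basal, and by 3.00 points without luminal 3. Pfkm took 38.0% ± 2.68 per kilobase of merged exon in basal and 42.4% ± 12.8 in luminal cells (SD over 2 libraries each), a difference within the spread. Which isoform led depended on the length used: by average it was Pfkm in both cell types with merged exons, Pfkp (37.0%) in basal and Pfkl (37.3%) in luminal cells with the longest transcript, and Pfkp in both (60.4% and 49.7%) with no division by length. Aldoc ranged from 93 to 309 and overlapped.

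Of the 6 members kept that make or remove fructose bisphosphates, 3 were past the threshold toward luminal cells, against 18.3% of all genes kept. These were Pfkfb4, Pfkfb3 and the barely detected Fbp2, which was kept through luminal cells alone, on about 2 and 3 reads. PFKFB enzymes set the level of the bisphosphate that activates phosphofructokinase. Pfkfb4 (ENSMUSG00000025648, chromosome 9, 108991778 to 109032228) was at 69 and 71 in basal 1 and 3 and at 312 and 252 in luminal 2 and 3. Both luminal values stood well above the basal ones. They rest on about 10 and 13 reads, against about 11 in each basal library. The averages were 70.0 ± 1.41 and 282 ± 42.4 (SD over 2 libraries each), a 4.03-fold difference, or 1.99 ± 0.60 (SE) on the log2 scale, and limma gave an adjusted p of 0.163. It was between 3.60-fold and 4.97-fold with each library left out in turn and under 3 rescalings.

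Pfkfb3 (ENSMUSG00000026773, chromosome 2, 11471433 to 11554077), the isoform with the highest kinase activity, was at 390 and 293 in basal 1 and 3 and at 1153 and 445 in luminal 2 and 3. Luminal 2 was far above the others, and luminal 3 just above the basal range. The averages were 342 ± 68.6 and 799 ± 501 (SD over 2 libraries each), for a log2 fold change of 1.08 ± 0.54 (SE; limma adjusted p = 0.359). The 2.34-fold difference was 1.30-fold without luminal 2 and 3.38-fold without luminal 3.

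Pfkfb2 was the main isoform, at 1121 and 1215 in basal and 1745 and 1568 in luminal 2 and 3, with a log2 fold change of 0.50 ± 0.24 (SE) and an adjusted p of 0.340 from limma. Its exons share 1416 bases with Yod1 and Gm29427, and the counting mode is not given, so its value is uncertain. The same limit applies to other members that share exon bases, among them Pkm (767), Pfkp (748), Gpi1 (741) and Rpe (558). Pfkfb1 was at 56 and 58 in basal and 0 and 77 in luminal 2 and 3. Per kilobase, Pfkfb4 took 6.04% and 6.19% of the family in basal and 14.0% and 14.9% in luminal 2 and 3. Pfkfb2 took 66.0% and 71.2% against 52.6% and 62.5%. The mean share of Pfkfb4 was thus 8.36 points higher in luminal cells, and Pfkfb3, at 19.2% ± 3.92 and 25.2% ± 11.6 (SD, n = 2 each), differed by less than its spread.

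The enzymes that remove fructose bisphosphates were barely detected. Fbp2, the muscle-type gluconeogenic phosphatase, was at 0 in basal cells and rested on about 2 and 3 reads in luminal 2 and 3. Fbp1 was at 39, about 2 reads, in luminal 3 and at 0 elsewhere. Tigar, a bisphosphatase that favours the pentose phosphate pathway, was at 63 and 19 in basal and 62 and 19 in luminal 2 and 3, with no separation of the cell types.

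**Figure D3:**
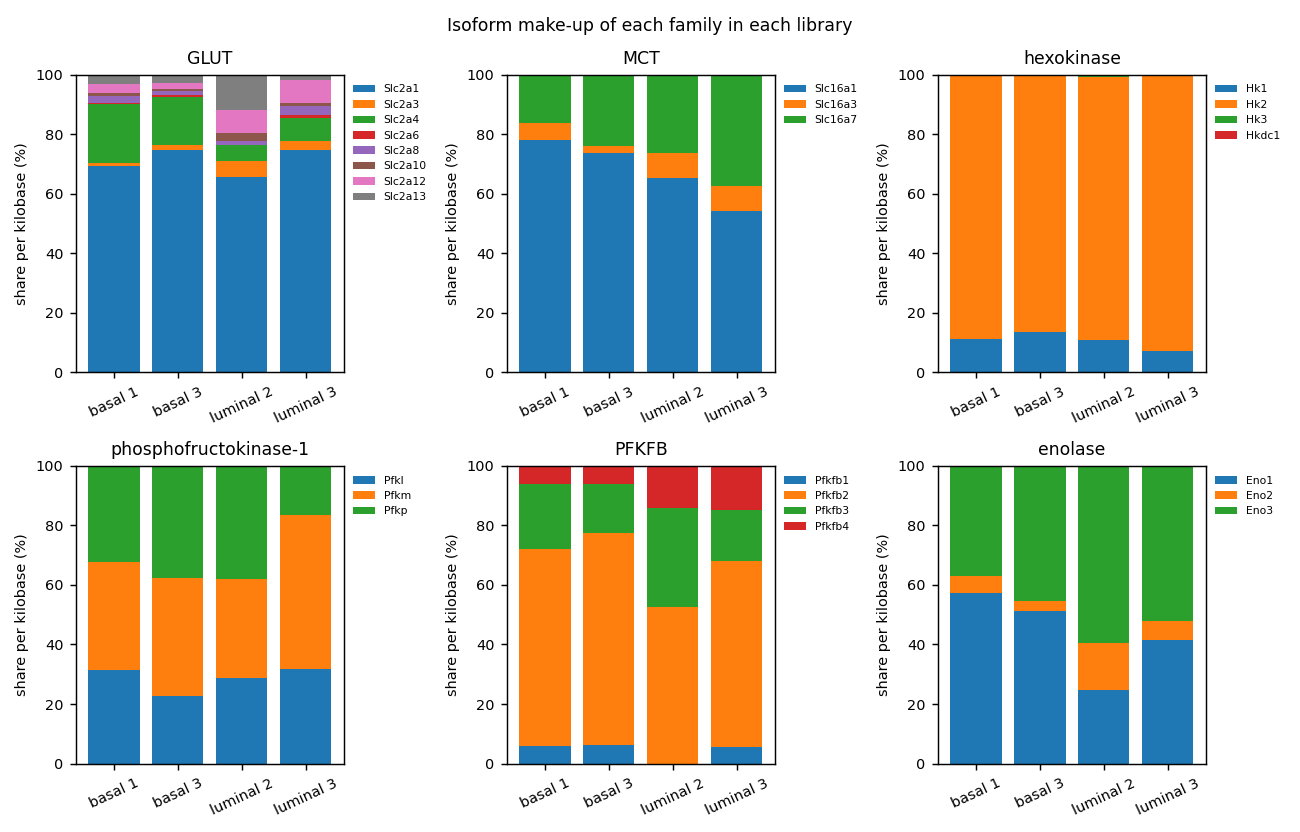
Share of each isoform within its family, per kilobase of merged exon and in percent, in each of the 4 libraries. Slc2a1, Hk2 and Pfkfb2 lead their families in every library, while the shares of Slc2a4 and Eno1 are smaller and those of Pfkfb4 and Eno3 larger in both luminal libraries. Near-identical copies of Eno1 are left out.

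Of the 8 lower glycolysis members kept, 3 were past the fold threshold, all higher in basal cells, against 16.3% of all genes kept. The size of 1 of them was set by basal 3. Gapdh (ENSMUSG00000057666, chromosome 6, 125161715 to 125166467), the NADH-forming dehydrogenase often used as a reference gene, was at 319 and 2543 in basal 1 and 3 and at 218 and 77 in luminal 2 and 3. Basal 3 was far above the other 3 libraries, and its distance from basal 1 gave the largest SD among the 9 named members. The averages were 1431 ± 1573 and 148 ± 99.7 (SD over 2 libraries each), for a log2 fold change of -2.79 ± 1.08 (SE; limma adjusted p = 0.260). The 9.70-fold difference was 2.16-fold without basal 3, 17.2-fold without basal 1, 18.6-fold without luminal 2 and 6.56-fold without luminal 3.

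Gapdh has 71 annotated near-identical copies in GRCm38 (95% identity or more over at least 50% of the coding transcript), 70 of them in the table, so its reads could be split or dropped by the mapping. The copies summed to 645 and 642 in basal 1 and 3 and to 795 and 538 in luminal 2 and 3. In 3 of 4 libraries they held more than Gapdh itself. With the copies added, the sums were 964 and 3185 in basal and 1013 and 615 in luminal 2 and 3, and the cell types overlapped. The log2 fold change was then -1.15.

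Eno1 (ENSMUSG00000063524, chromosome 4, 150236721 to 150248879), the ubiquitous enolase, was at 720 and 838 in basal 1 and 3 and at 280 and 426 in luminal 2 and 3. The groups did not overlap, and the luminal values rest on about 9 and 22 reads. The averages were 779 ± 83.4 and 353 ± 103 (SD over 2 libraries each), a 2.21-fold difference, or -1.17 ± 0.37 (SE) on the log2 scale, and limma gave an adjusted p of 0.184. The fold was 1.83 without luminal 2 and 1.76 after rescaling to nuclear protein-coding genes. With its 3 near-identical copies added (Eno1b, Gm4735 and Gm5855), it was at 2179 and 1644 in basal and 872 and 1027 in luminal 2 and 3, with averages of 1912 ± 378 and 949.5 ± 110 (SD, n = 2 each), and the groups stayed apart.

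The muscle enolase Eno3 was at 150 and 240 against 218 and 174, and the neuronal Eno2 at 63 and 45 against 156 and 58. Per kilobase, Eno1 was 57.3% and 51.4% of enolase in basal 1 and 3 and 24.7% and 41.3% in luminal 2 and 3. Eno3 took 36.9% and 45.5% against 59.5% and 52.2%. Eno1 led in basal cells at every length tried, while the leading luminal isoform depended on it: by average it was Eno3 with merged exons, and Eno1 with the longest transcript (51.4% against 37.2% for Eno3) and with no division by length (53.8% against 29.9%). The lower luminal share of Eno1 was present with all 3. On reads alone the Eno1 share had a 95% Wilson interval of 69.8% to 83.2% in basal 1 and of 47.9% to 78.5% in luminal 3, which overlap, and of 24.5% to 63.5% in luminal 2, which does not reach that of basal 1. The copies were left out of these shares, so the luminal lead of Eno3 with merged exons applies to Eno1 without them. With the copies added Eno1 was at 872 and 1027 in luminal 2 and 3, against 218 and 174 for Eno3.

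Bpgm (ENSMUSG00000038871, chromosome 6, 34476207 to 34505613), which makes the bisphosphoglycerate that lowers the oxygen affinity of haemoglobin in red cells, was at 175 and 305 in basal 1 and 3 and at 62 and 155 in luminal 2 and 3. The groups were close, and luminal 2 rests on about 2 reads. The averages were 240 ± 91.9 and 109 ± 65.8 (SD over 2 libraries each), with a log2 fold change of -1.23 ± 0.73 (SE) and an adjusted p of 0.430 from limma. The 2.21-fold difference was 1.55-fold without luminal 2 and 1.61-fold without basal 3, and 3.87-fold without luminal 3 and 2.81-fold without basal 1. Erythroid markers were near 0 apart from Alas2. Hba-a2 and Hbb-bt were at 0 in every library, Hba-a1 was at 6 in each basal and 0 in each luminal library, and Alas2, at 38 and 26 in basal and 249 and 155 in luminal 2 and 3, was ordered opposite to Bpgm.

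The other lower glycolysis members kept were past neither threshold. Pkm, pyruvate kinase, was at 3701 and 2637 in basal and 3490 and 2846 in luminal 2 and 3, a log2 fold change of 0.01 (95% limma interval -0.66 to 0.69), and gene-level counts do not separate its splice forms. Pgk1, which makes the first ATP, was at 482 and 266 against 187 and 465, and Pgam1 at 113 and 71 against 62 and 97. Pgam1-ps2, identical to Pgam1 over 43.1% of its transcript and so not counted among the copies, was above Pgam1 in every library. It was at 175 and 97 in basal and 93 and 116 in luminal 2 and 3, so the low Pgam1 value is uncertain. Pgam2, the muscle mutase, was at 13 in each basal library, about 2 reads, and at 0 in luminal cells, where 3 reads would be worth 93.5 and 58.1. With their copies added, Pkm, Pgk1 and Gpi1 had log2 fold changes of 0.01, -0.27 and -0.11.

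**Figure D4:**
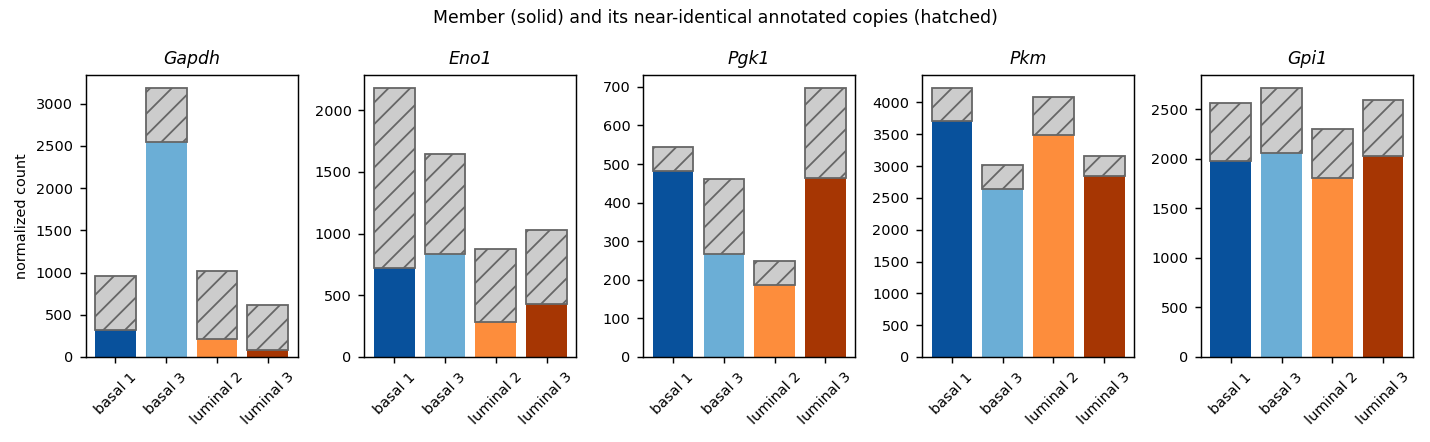
Normalized counts of 5 glycolytic members (solid) and of their annotated near-identical copies (hatched, stacked on top) in each library, each panel with an axis from 0. Copies exceed Gapdh and Eno1 themselves in basal 1, luminal 2 and luminal 3, while they add a smaller part to Pkm and Gpi1.

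The pentose phosphate pathway had 1 of 7 members past the fold threshold, toward luminal cells, near the 18.3% of all genes kept. This member was in its oxidative arm. Pgd (ENSMUSG00000028961, chromosome 4, 149149991 to 149166771), phosphogluconate dehydrogenase, forms NADPH and a pentose phosphate. It was at 413 and 377 in basal 1 and 3 and at 1028 and 1104 in luminal 2 and 3. The libraries of each cell type were close and the groups far apart, on about 66 and 58 basal and 33 and 57 luminal reads. The averages were 395 ± 25.5 and 1066 ± 53.7 (SD over 2 libraries each), a 2.70-fold difference, or 1.43 ± 0.29 (SE) on the log2 scale, and limma gave an adjusted p of 0.0705. The 95% Poisson intervals of the basal values, 320 to 526 and 286 to 487, did not reach those of the luminal values, 708 to 1444 and 836 to 1430. The fold was between 2.58 and 3.36 with each library left out in turn and under 3 rescalings.

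G6pdx, the enzyme that opens the oxidative arm, was at 407 and 338 in basal and 623 and 678 in luminal 2 and 3. Both luminal values were higher, a 1.75-fold difference; on the log2 scale this was 0.81 ± 0.33 (SE; limma adjusted p = 0.280). Pgls, the lactonase between them, was at 344 and 253 against 156 and 542 and overlapped. Its exons share 776 bases with Fam129c, and those of G6pdx share 418 with Ikbkg.

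In the non-oxidative arm, Rpia, the ribose phosphate isomerase, was at 144 and 253 in basal and 405 and 387 in luminal 2 and 3, a 1.99-fold difference, or 1.05 ± 0.49 (SE) on the log2 scale, and limma gave an adjusted p of 0.331. Taldo1, transaldolase, was at 614 and 448 against 530 and 1259, and Tkt, transketolase, at 2211 and 1923 against 1184 and 2285. Luminal 3 was the highest library for both and luminal 2 was within or below the basal range. Rpe, the epimerase, was at 520 and 305 against 405 and 271. Both NADPH-forming dehydrogenases were therefore higher in both luminal libraries, while Pgls, Taldo1 and Tkt had their highest value in luminal 3 and not in luminal 2.

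**Figure D5:**
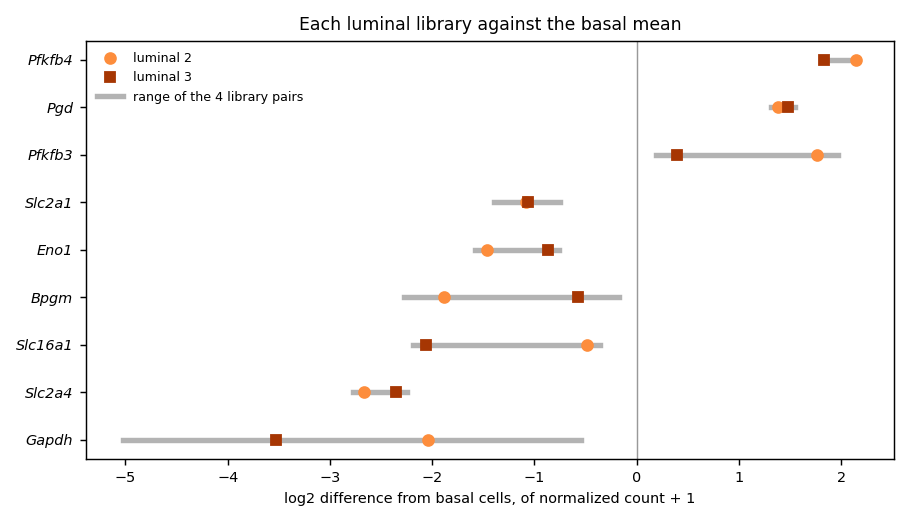
Log2 difference of each luminal library from the basal mean, on normalized count plus 1, for the 9 members past the fold threshold with no overlap and an average of 100 or more; grey bars span the 4 basal-luminal pairs of libraries. Slc2a4, Slc2a1, Pgd and Pfkfb4 have both luminal libraries close together, while Gapdh, Slc16a1, Pfkfb3 and Bpgm spread widely on the same side of 0.

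Scaling bears on the smaller differences. Rescaling to nuclear protein-coding genes moved the median of all genes kept from -0.10 to 0.21, and the count of members past the threshold became 9 higher in luminal and 2 in basal cells, Slc2a4 and Gapdh. Under it 10 members near 0 changed sign, and none of these was among the 9 named. The role groups had median log2 fold changes of 0.79 for control of fructose bisphosphates, 0.64 for the pentose phosphate pathway, 0.31 for phosphorylation, -0.24 for lower and -0.37 for upper glycolysis, -0.26 for monocarboxylate and -0.30 for glucose transporters. After that rescaling the first 3 were larger, up to 1.1, and lower glycolysis (0.065), upper glycolysis (-0.063), monocarboxylate transporters (0.052) and glucose transporters (0.0060) came near 0. These medians describe members that passed the filter, 2 of which (Hk3 and Fbp2) passed through luminal cells alone, on about 1 to 3 reads. Without them the median was 0.037 for phosphorylation and 0.50 for control of fructose bisphosphates, so the first rests on Hk3.

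Of 15 carriers and isoforms left out of the list, 3 (Slc2a7, Pgk2 and Tktl2) were at 0 in every library and 7 were kept, with 3 (42.9%) higher in luminal and 2 (28.6%) in basal cells, against 18.3% and 16.3% of all genes kept, and a median log2 fold change of -0.11. Slc5a1, the sodium-glucose cotransporter SGLT1, was at 25 and 19 in basal and 312 and 465 in luminal 2 and 3, for a log2 fold change of 4.07 ± 0.74 (SE; limma adjusted p = 0.0688). Its values ran opposite to those of Slc2a4, with the luminal libraries on top. Slc2a9, the urate carrier GLUT9, was at 301 and 412 against 156 and 39, and the transketolase-like Tktl1 at 883 and 435 against 280 and 97, with log2 fold changes of -2.16 and -1.90 (limma adjusted p = 0.252 and 0.229).

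Of 31 genes that branch from glycolysis, 29 were kept, with 6 (20.7%, background 18.3%) higher in luminal cells, 3 (10.3%, background 16.3%) in basal cells, 20 in neither and a median log2 fold change of 0.12. No limma call was made (3 with unadjusted p under 0.05). Gpd1, glycerol 3-phosphate dehydrogenase, was at 44 and 19 in basal and 156 and 349 in luminal 2 and 3, with a log2 fold change of 2.97 (limma adjusted p = 0.164). H6pd, which runs the oxidative pentose phosphate steps inside the endoplasmic reticulum, was at 344 and 143 against 717 and 562, a log2 fold change of 1.51 (limma adjusted p = 0.227). Prps1, which turns ribose phosphate into the nucleotide precursor, was at 282 and 227 against 93 and 116, a log2 fold change of -1.28 (limma adjusted p = 0.310). Gfpt1, the first enzyme of hexosamine synthesis, chosen after its values were seen, was at 1916 and 2189 in basal and 4581 and 5228 in luminal 2 and 3, with a log2 fold change of 1.26 ± 0.22 (SE) and an adjusted p of 0.0688 from limma.

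Of 28 genes that regulate glucose genes, 27 were kept, with 2 (7.41%, background 18.3%) higher in luminal and 8 (29.6%, background 16.3%) in basal cells and a median of -0.21. The 1 limma call was Hif1a, the oxygen-regulated factor, named for this call after its values were seen, at 8066 and 7028 in basal and 2400 and 2169 in luminal 2 and 3, for a log2 fold change of -1.72 ± 0.22 (SE; limma adjusted p = 0.0497). This call was present in 3 of 11 alternatives, with adjusted p from 0.00589 to 0.228, and was lost with no filter on low values, after median-ratio rescaling (0.0516) or rescaling to nuclear protein-coding genes (0.0646), without the trended prior and with any library left out. Its hydroxylase Egln3 was at 1215 and 500 against 93 and 39 (log2 fold change -3.67, limma adjusted p = 0.0705) and the related factor Epas1 at 3952 and 1994 against 873 and 465 (-2.14, adjusted p = 0.0786). Irs2, an insulin receptor substrate, was at 20942 and 16571 against 7105 and 2420 (-2.17, limma adjusted p = 0.0965). The MCT chaperones were read out beside Slc16a1, chosen after their values were seen. Bsg (basigin), the partner of MCT1, was at 4547 and 4242 in basal and 1932 and 2072 in luminal 2 and 3 (-1.13, limma adjusted p = 0.0688), and Emb (embigin), the usual partner of MCT2, at 213 and 403 against 841 and 1588 (1.98, limma adjusted p = 0.106).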

How the data were processed

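Per the labels and the study's methods, the authors prepared Ovation Solo libraries, sequenced them on a NovaSeq, aligned reads to GRCm38 with STAR, counted them per Ensembl gene with HTSeq and deposited a rounded signal for each gene, the count scaled to a common total of aligned reads in every library. The submitters' processing notes also name Picard. The counting mode, strand use and removal of duplicates are not given in the sources used here. All columns were mapped to a sample, leaving 0 unmapped.

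Genes were kept when every library of at least 1 cell type was at 10 or more and its average at 20 or more. These minimums are the study's, which does not say whether 1 cell type suffices; the stricter reading is an alternative. Ratios of averages were called at 2 and 0.5. limma 3.58.1 (R 4.3.3) was fitted with a trended prior to log2 of the normalized count plus 1 over all 18737 genes kept, with Benjamini-Hochberg adjustment, and was tested on simulated data. Count models were planned on whole reads recovered from the scaled values and were not run, because these could not be recovered for luminal 2 in part of the genes. Shares of a family used values per kilobase of merged exon. Near-identical copies were found with blastn 2.17.0+, and promoters came from RefSeq (GRCm38.p6). Plots and tables used Python 3.11.15 with pandas 2.3.3 and scipy 1.17.1.

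The worth of 1 read was taken from the spacing of low values (60 reads or fewer), on which 97.9% to 99.0% of them lay, and 519 genes had values off it, so read numbers are approximate. Intervals cover counting error only. The members, gene lists, tests and alternatives were chosen with earlier results of these data known. Members named with full values have a limma adjusted p under 0.05, or are past the fold threshold with no overlap and an average of 100 or more, or lead their family per kilobase; from every other list, at most 3 genes are named by rule, those that differ most at such an average. Marker genes of other cell types, and Hif1a, Bsg, Emb, Gfpt1 and Ldha, were named after their values were seen. Alternatives changed the filter, scaling, pseudocount, prior, fold threshold and exon length, and left out each library in turn. Adding the near-identical copies was chosen after seeing the data. Some marker genes are not reported here.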

Additional observations from a re-analysis of the deposited data

How the results depend on the processing

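The 9 members past the fold threshold with no overlap and an average of 100 or more had 74 values under alternatives, and none changed direction. Values with a library left out could not do so, because these members were chosen for no overlap between the cell types. The protein-coding rescaling took Slc2a1 only from -1.07 to -0.76, a small shift beside the required fold of 2. The kept direction therefore says little about stability, and the family leaders below were not chosen this way. Of the 36 tested with all libraries, Slc2a4 passed the limma threshold in 2, with a pseudocount of 10 and with quantile normalization, and 34 stayed above it. A further 36 left out a library, where the spread within a cell type comes from the other cell type alone and a missed threshold says nothing of stability. Gapdh and Eno1 with their copies added had no test. The 6 members named only as leaders of a family (Hk2, Pfkm, Pfkfb2, Aldoa, Pgam1 and Eno3) had 48 values, of which 8 changed direction: Aldoa (-0.21) was 0.073 with quantile normalization and 0.10 after rescaling to nuclear protein-coding genes, Pgam1 (-0.21) was 0.10 after that rescaling and -0.54 to 0.13 with a library left out (0.13 without basal 1, 0.11 without luminal 2), and Eno3 (0.037) was -0.039 with quantile normalization and -0.30 to 0.37 with a library left out (-0.30 without basal 1, -0.12 without luminal 2). Members past the fold threshold, 5 higher in luminal and 6 in basal cells, were 3 and 6 when both cell types had to pass the filter, 9 and 2 after rescaling to nuclear protein-coding genes, 10 and 8 at a fold of 1.5, and 3 and 2 at a fold of 4. Leaving out each library gave 5 to 8 higher in luminal and 4 to 9 in basal cells. The limma calls, 0 with 9 members at an unadjusted p under 0.05, became 1 when both cell types had to pass the filter, 3 with quantile normalization, 1 with a pseudocount of 10 and 2 without the trended prior, and 0 to 3 with a library left out. Of the calls with a library left out, Fbp1, Fbp2, Hk3 and Pfkfb1 rest on at most 4 luminal reads. The median log2 fold change of the members, -0.14, was -0.041 with quantile normalization, 0.17 after rescaling to nuclear protein-coding genes and -0.18 to 0.082 with a library left out, highest without luminal 3. The cause of these shifts was not tested.

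Among isoform shares, luminal minus basal, Pfkp ranged from -18.4 to 3.00 points and Aldoa from -1.22 to 4.92 points with a library left out, turning positive for Pfkp without luminal 3 and negative for Aldoa without basal 3 (-1.22) or luminal 2 (-0.33), against 1.85 with all. Pgam2, at about 2 reads in each basal library, was -25.8 points, -12.9 without division by exon length and -30.2 to -21.3 with a library left out. The values of Pgam1-ps2, which were above those of Pgam1, were left out of this share. The planned count models on recovered reads were not run, because whole reads could not be recovered for luminal 2 in part of the genes. No paired analysis was possible because the groups compared share fewer than 2 replicate numbers. Depth limits the luminal values: 3 reads were worth 93.5 and 58.1 normalized counts in luminal 2 and 3 and 18.8 and 19.5 in basal 1 and 3.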

Other observations

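Of 16 further targets of the hypoxia response, all kept, which are not among the 46 members but include the neighbouring glucose genes Ldha and Pdk1, 6 (37.5%) were past the fold threshold toward basal cells, against 16.3% of all genes kept, 1 toward luminal cells and 9 in neither direction. Both luminal libraries lay below both basal libraries in 7 (43.8%), against 27.3%. The median log2 fold change was -0.77. Adm, the vasodilator adrenomedullin, was the 1 limma call, at 1547 and 1286 in basal 1 and 3 and 62 and 97 in luminal 2 and 3 (log2 fold change -4.17, adjusted p = 0.0410). The call was present in 6 of 11 alternatives, with adjusted p from 0.00226 to 0.279, and was lost with no filter on low values and with any library left out. Ero1l, an oxidase of the endoplasmic reticulum, was at 1052 and 539 against 467 and 97, and Car9, a carbonic anhydrase, at 75 and 344 against 280 and 0, with no separation of the cell types. Ldha, the lactate dehydrogenase of glycolytic cells, chosen after its values were seen, was at 2643 and 2468 against 2992 and 2672, a log2 fold change of 0.15 (limma adjusted p = 0.733).

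Of 11 other targets of the antioxidant factor NRF2, which also acts on pentose phosphate genes, 2 (18.2%) were past the threshold in each direction, against 18.3% of all genes kept toward luminal and 16.3% toward basal cells, with a median of 0.12. Gsta4, a glutathione transferase, was at 200 and 227 in basal and 499 and 581 in luminal 2 and 3 and Me1, the NADPH-forming malic enzyme, at 257 and 136 against 467 and 329, the direction of Pgd. Gclm, the modifier of glutathione synthesis, was at 2204 and 1325 against 717 and 813, the direction opposite to Pgd.

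Of 12 proliferation genes, 2 (16.7%) were past the threshold toward luminal and 1 (8.33%) toward basal cells, against 18.3% and 16.3% of all genes kept, with a median of 0.24. Cdk1 was at 50 and 97 against 187 and 194, Pcna at 1159 and 1254 against 748 and 445, and Mcm3 at 582 and 292 against 156 and 310. Of 12 genes of dissociation stress, 2 (16.7%) were past the threshold toward basal cells and 0 toward luminal cells, against 16.3% and 18.3%, and both basal libraries lay above both luminal libraries in 5 (41.7%, against 27.3%), with a median of -0.54 and sums of 435366 and 232540 in basal 1 and 3 and 239172 and 158501 in luminal 2 and 3. Nr4a1, Egr1 and Fos were the 3 with the largest differences, at log2 fold changes of -0.98, -0.94 and -0.94.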
